A study of Mus musculus with 12 samples.

Results

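The 41 genes described here encode the transcription factor NRF2 (gene Nfe2l2), its inhibitor KEAP1, enzymes that NRF2 is known to switch on, and the enzymes that hold and spend cellular antioxidants, among them the glutathione transferases (GSTs). They were chosen by name from the 50559 genes listed in the count tables, and all 41 were found. Liver RNA came from C57BL/6N mice in 4 groups of 3 libraries, 12 in all: chow (NCD), a high-fat diet (HFD) for 12 weeks with 60% of its energy from fat, and the same diet with compound C1 or compound C2 given intraperitoneally at 5 mg/kg per day (HFD+C1, HFD+C2). The series title calls both compounds CYP4A inhibitors, that is, blockers of the cytochrome P450 enzymes that hydroxylate fatty acids at their far end; the labels give code names and no structures. The labels do not say whether NCD and HFD mice were injected with vehicle. Libraries of a group are taken as separate animals, although no label ties a library to an animal, so p-values measure the spread between libraries.

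KEAP1 holds NRF2 in the cytoplasm and marks it for degradation; when its cysteines are modified by oxidants or electrophiles, NRF2 reaches the nucleus and binds antioxidant response elements with a small MAF partner. Its known targets make and recycle glutathione, reduce oxidised thiols and conjugate reactive compounds. The GSTs join glutathione to electrophiles, and in liver they are abundant enzymes of detoxification. NRF2 is controlled largely through its protein, so the level of Nfe2l2 RNA is not a measure of its activity.

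Promoter sequences are described first, because the antioxidant response element is the sequence NRF2 is known to bind. RefSeq promoter windows (GRCm38.p6, 250 bases before to 50 after each start) were found for 35 of the 41 members. The core TGACNNNGC, searched on both strands, stood in windows of 9 of the 35 members (25.7%) and in 13.99% of all genes with a window (3781 of 27025). The looser TGANNNNGC, which contains it, stood in 54.3% of members and in 45.05% of all genes. The spellings TGAGTCAGC and TGACTCAGC, a search added after the data were seen, stood in windows of 251 of all 27025 genes (0.929%) and of 4 of the 35 members (11.4%): Srxn1, Prdx1 and the near-copies Gstp1 and Gstp2. A match is a description of letters, not a site shown to be bound. The 5 stretches below are printed because they hold a match. They are from members that changed with diet or had the next smallest p among those above 0, and from the near-copy Gstp2. Of the other members that changed with diet, Gpx1 and Gstm6 had windows without any of these matches. Gstt3 matched only the looser TGANNNNGC, and Gsta4 had no window. Capitals mark the match, which in Gclm reads TGACNNNGC on the opposite strand.
Nfe2l2 (chr2:75704855-75704913, minus strand, match from base -240): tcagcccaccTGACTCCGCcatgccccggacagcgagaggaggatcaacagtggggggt
Srxn1 (chr2:152105439-152105523, plus strand, match from base -45): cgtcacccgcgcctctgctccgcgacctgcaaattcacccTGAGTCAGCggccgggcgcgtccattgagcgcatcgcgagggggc
Gclm (chr3:122245383-122245471, plus strand, match from base -134): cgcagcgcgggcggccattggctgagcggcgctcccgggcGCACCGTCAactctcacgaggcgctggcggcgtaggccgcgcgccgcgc
Gstp1 (chr19:4037938-4038026, minus strand, match from base -74): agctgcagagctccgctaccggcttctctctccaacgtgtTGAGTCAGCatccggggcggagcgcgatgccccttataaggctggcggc
Gstp2 (chr19:4042262-4042350, minus strand, match from base -89): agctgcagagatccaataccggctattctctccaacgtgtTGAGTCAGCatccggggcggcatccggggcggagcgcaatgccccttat
Bases are counted from the transcript start, and the 5 matches shown lie upstream of it; the match of Srxn1 to TGACNNNGC, not shown, lies downstream, from base 29. Gstp1 and Gstp2 hold the same 9 letters; with diet the first fell and the second was lower without passing the test.

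Levels below are CPM, read counts scaled to the reads in genes of each library with TMM factors over the 12 libraries, computed on genes averaging 10 or more counts; they compare libraries for a gene, not genes with each other. The shallowest library, NCD replicate 2, held 4281210 reads in genes and the deepest, HFD replicate 1, held 32124248; of these reads the members took 1.83% to 2.47%. A floor of 3 counts is 0.0998 to 0.634 CPM. NCD replicate 1 and HFD+C2 replicate 1 stood apart: 58.2% and 47.1% of their reads were not counted in a gene. Such reads were unmapped, mapped to several places, ambiguous between genes or in no feature. Both libraries correlated less with the other libraries of their groups, at 0.929 to 0.947 and 0.968 to 0.969. Those others correlated at 0.981 and 0.991 with each other (log2 values, 13466 genes). The 6 hepatocyte markers summed to 28853 to 75326 CPM in NCD, against 87575 to 104521 in HFD, 99391 to 108388 in HFD+C1 and 78286 to 147704 in HFD+C2, with the lowest sum in NCD replicate 1; none was at 0 throughout. The 6 Kupffer cell and macrophage markers summed to 142 to 249 CPM in NCD, 133 to 175 in HFD, 217 to 284 in HFD+C1 and 169 to 404 in HFD+C2, with the highest sum in HFD+C2 replicate 1. The 6 stellate cell markers summed to 73.8 to 99.99 CPM in NCD and 96.7 to 119.5 in HFD, the 6 cholangiocyte markers to 24.3 to 32.9 and 33.3 to 40.1, and the 4 adipocyte markers to at most 0.948 in any library, under the floor in every HFD library and in NCD replicate 2. The cholangiocyte sum was higher in every HFD library than in any NCD library, and its part in the diet results was not tested. Reads not counted in a gene also set the diets apart, at 58.2%, 35.7% and 40.7% in NCD and 32.2%, 32.9% and 31.9% in HFD. Reads in no feature were 23.2%, 8.58% and 10.4% in NCD and 6.27%, 4.92% and 6.84% in HFD. The part of this split in the diet results was not tested.

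**Figure D1:**
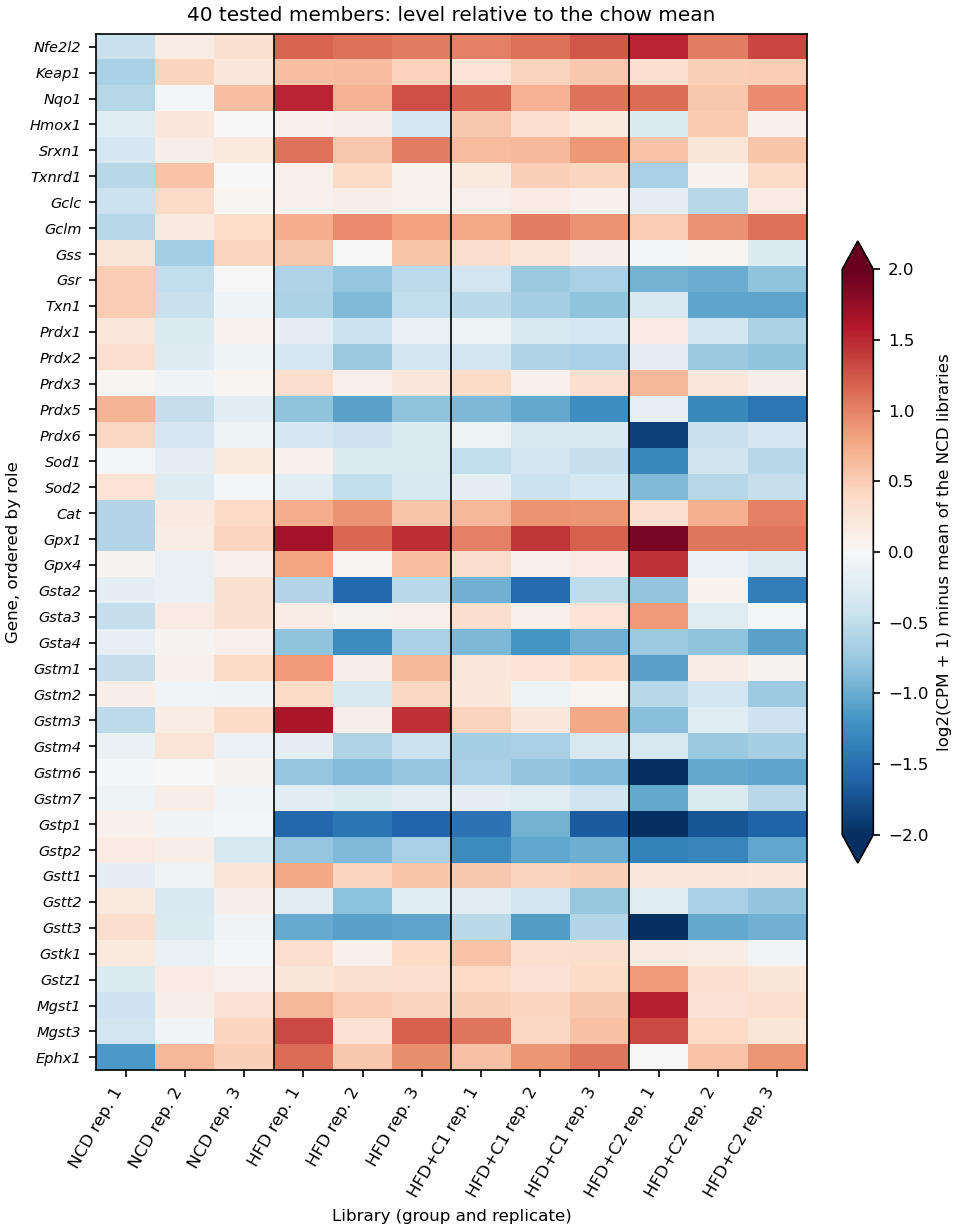
Level of each of the 40 members tested (rows, grouped by role) in each of the 12 libraries (columns), as log2(CPM + 1) minus the mean of the 3 NCD libraries; red is higher and blue lower than that mean. Nfe2l2 and Gpx1 are higher in every HFD-fed library, Gstp1 is lower in every one, and Gstm1, Gstm6 and Gstm7 are low in HFD+C2 replicate 1.

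The first comparison asks how the diet alone differs from chow. With diet, Nfe2l2 and the cytosolic peroxidase Gpx1 rose, and the GSTs Gstp1, Gstt3, Gsta4 and Gstm6, of the pi, theta, alpha and mu classes, fell. These were the 6 members called of 40 tested (edgeR quasi-likelihood test, Benjamini-Hochberg adjustment over 13864 genes, adjusted p under 0.05); the 41st member, the cystine carrier subunit Slc7a11, had 0 to 12 reads per library and was too low to test. Of the members, 2 were called higher against 2.59% of all genes, and 4 were called lower against 3.44%. In 11 members (27.5%) all 3 HFD libraries lay above all 3 NCD libraries, against 18.2% of all genes, and in 12 (30%) all lay below, against 18.9%; other scalings of the levels gave 8 to 13 members higher, against 11.7% to 25.4% of genes, and 7 to 16 lower, against 12.9% to 27.3%. An unadjusted p under 0.05 was reached by 20 members (50%, 10 in each direction) and by 28.9% of all genes, and without HFD replicate 1 by 12 members and 17% of genes. The median member changed by 0.11 on the log2 scale and the median gene by -0.02; the member median was -0.11 without NCD replicate 1 and -0.09 with total counts alone.

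**Figure D2:**
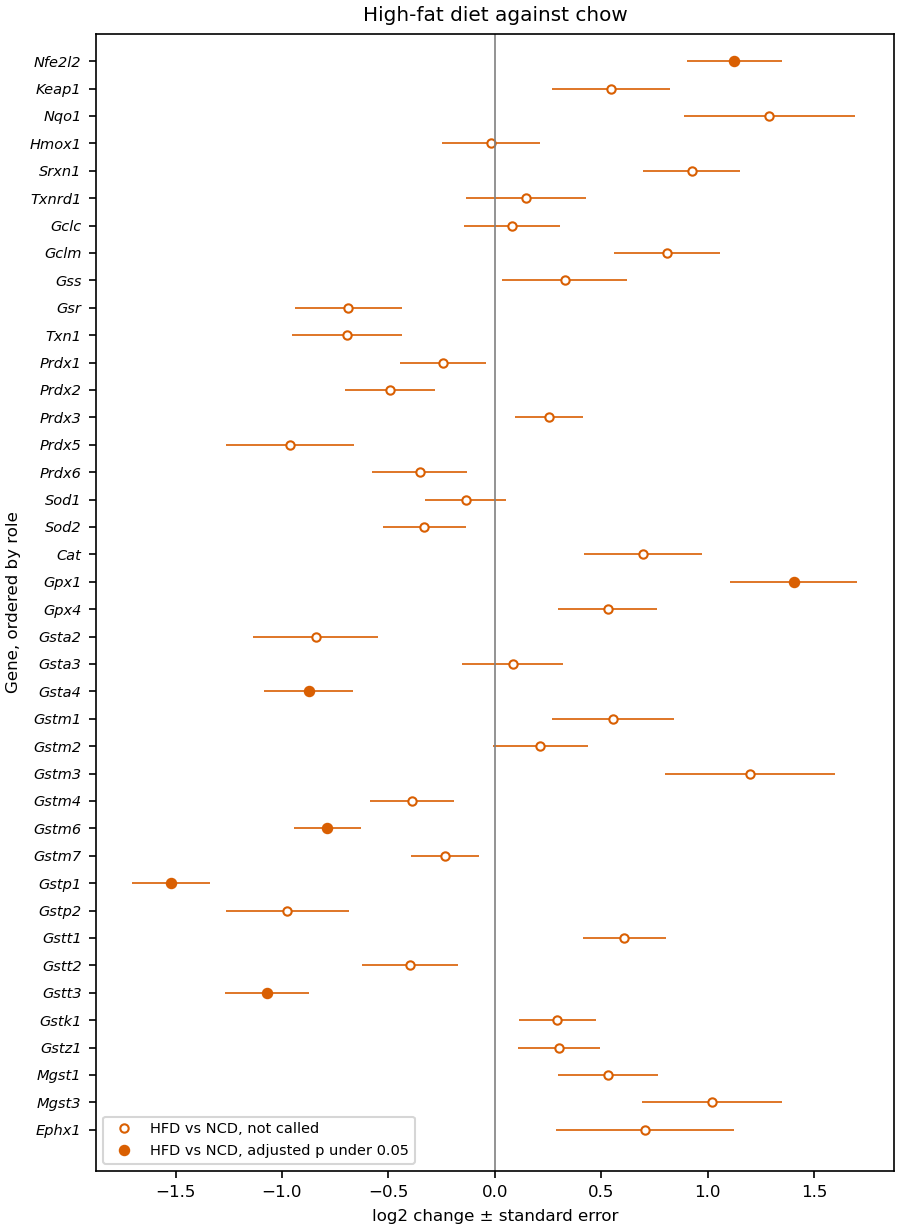
Log2 change from NCD to HFD (x axis) with its standard error for each of the 40 members tested, grouped by role on the y axis and with called members marked. The 2 called increases are 1.12 and 1.40, and the 4 called decreases, all GSTs, run from -1.52 to -0.79.

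Of the regulators, Nfe2l2 stood at 15.8, 24.3 and 27.1 CPM in NCD and at 50.3, 48.1 and 45.9 CPM in HFD. The groups did not overlap and the HFD libraries lay close together. The mean rose from 22.4 ± 5.89 to 48.1 ± 2.2 CPM (SD, n = 3 each), a log2 change of 1.12 ± 0.22 (SE; 2.18-fold; adjusted p = 0.0354). Keap1 stood at 11.6, 25.8 and 21.8 CPM in NCD and 28.9, 29.3 and 26.3 CPM in HFD, higher in each HFD library than in any NCD library, but its log2 change of 0.55 ± 0.28 did not pass the test (adjusted p = 0.227). In whole liver, fewer cells of a type and less RNA per cell cannot be told apart; the hepatocyte marker sum was itself higher in every HFD library than in any NCD library, and its part in these results was not tested.

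The 4 NRF2 target enzymes tested held no call. Sulfiredoxin (Srxn1), which repairs over-oxidised peroxiredoxins, stood at 25.2, 35.5 and 37.2 CPM in NCD and 69.4, 47.1 and 66.5 CPM in HFD, with no overlap. Its log2 change of 0.92 ± 0.23 did not pass (adjusted p = 0.0506). The quinone reductase Nqo1 went from 2.15, 3.59 and 6.14 CPM to 12.5, 6.56 and 10.5 CPM (log2 change 1.29 ± 0.40, adjusted p = 0.0846). Heme oxygenase Hmox1 differed by -0.02 ± 0.23 and thioredoxin reductase Txnrd1 by 0.15 ± 0.28, both with overlapping groups.

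In glutathione supply, the modifier subunit of glutamate-cysteine ligase and its catalytic subunit gave different values. Gclm, the modifier, stood at 33.2, 55.8 and 63.5 CPM in NCD and at 81.8, 95.2 and 86.5 CPM in HFD, without overlap (log2 change 0.81 ± 0.25, adjusted p = 0.0812). Gclc, the catalytic subunit, overlapped between diets (log2 change 0.08 ± 0.23). Glutathione synthetase Gss differed by 0.33 ± 0.29 and glutathione reductase Gsr by -0.69 ± 0.25, and neither passed (adjusted p = 0.479 and 0.121), though Gsr, at 40.9 to 48.8 CPM in HFD, lay below all NCD libraries. Slc7a11 had 4, 1 and 12 reads in the NCD libraries and 3, 0 and 0 in HFD, so most of these values lie at or under the floor.

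Among enzymes that remove superoxide and peroxide, Gpx1, which reduces hydrogen peroxide with glutathione, went from 1556, 2579 and 3157 CPM in NCD to 7417, 5146 and 6459 CPM in HFD. Every HFD library exceeded every NCD library, and the mean rose from 2431 ± 811 to 6341 ± 1139.9 CPM (SD; log2 change 1.40 ± 0.30, 2.64-fold, adjusted p = 0.0403). Catalase, Cat (log2 change 0.69 ± 0.28), also lay higher without overlap, the membrane lipid peroxidase Gpx4 (0.53 ± 0.23) overlapped, and neither passed (adjusted p = 0.145 and 0.171). The superoxide dismutases Sod1 and Sod2 differed by -0.14 ± 0.19 and -0.33 ± 0.19 with overlapping groups. Of the 50-base windows of the Gpx4 transcript, 61.7% also occur in other genes, chiefly Gpx4-ps2 (GENCODE M21). For Sod1, 23.1% occur in Gm8566, so how reads were split is uncertain for Gpx4 and Sod1 in every comparison. The thioredoxin and peroxiredoxin genes held no call: 5 of the 6 had values below 0, from -0.96 for Prdx5 to -0.24 for Prdx1, and Prdx3, the mitochondrial peroxiredoxin, stood at 0.25. Prdx5 shares 19.1% of its exon bases with its neighbour Trmt112, and strand use in counting is not given in the sources used here.

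**Figure D3:**
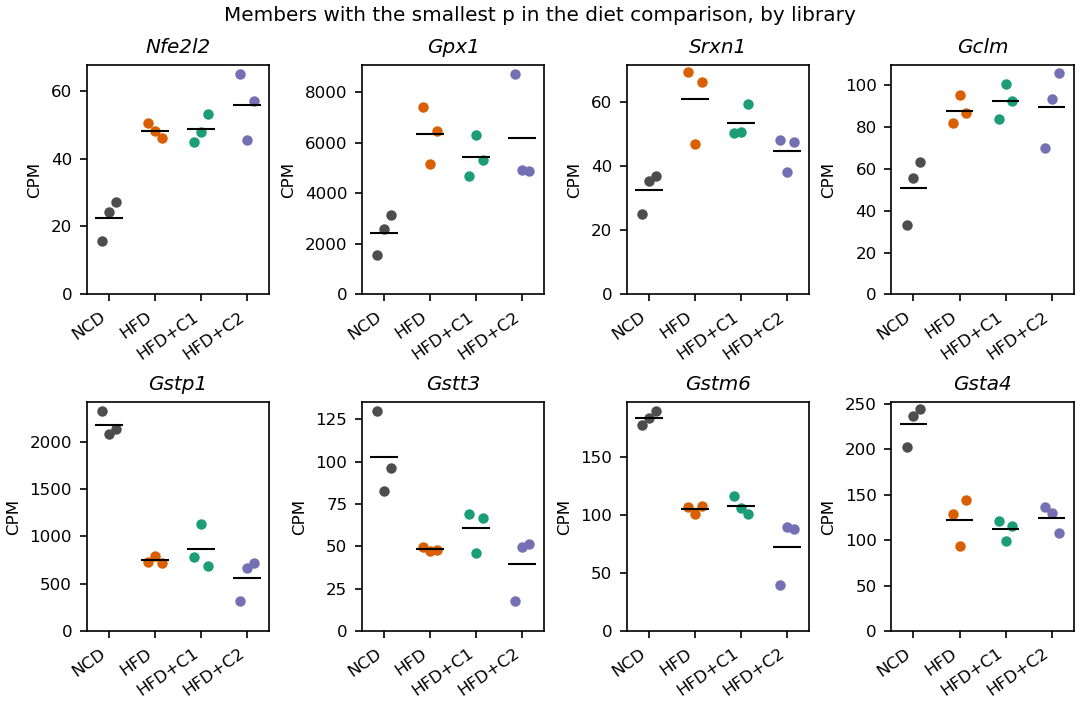
CPM in each library (points) and group mean (black line) of Nfe2l2, Gpx1, Srxn1, Gclm, Gstp1, Gstt3, Gstm6 and Gsta4 in the 4 groups. The 3 NCD libraries lie apart from the 3 HFD libraries in all 8 panels, below them in the first 4 genes and above them in the last 4.

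The cytosolic and mitochondrial GSTs did not move together. Of 16 tested, 0 were called higher and 4 (25%) lower, against 2.59% and 3.44% of all genes; 9 (56.3%) had log2 changes below 0, against 51.5% of all genes, and their median was -0.31. The pi-class gene Gstp1 (chr19:4035411-4037912, GRCm38.p6) gave the lowest p of all members. It stood at 2321, 2083 and 2140.2 CPM in NCD and at 730, 795 and 722 CPM in HFD, so both groups were tight and far apart. The mean fell from 2181 ± 124 to 749 ± 40 CPM (SD; log2 change -1.52 ± 0.18, 2.87-fold lower, adjusted p = 0.00718). Its neighbour Gstp2 (chr19:4040288-4042221) was counted far less, at 5.43, 5.28 and 3.67 CPM in NCD and 2.36, 2.09 and 2.65 CPM in HFD, again without overlap (log2 change -0.98 ± 0.29, adjusted p = 0.0749). Of the 50-base windows of the Gstp1 transcript, 62.3% also occur in Gstp2 (GENCODE M21), so how reads were split between the pair is uncertain.

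In the theta class, whose genes lie side by side on chromosome 10, values ran in both directions. Gstt3 stood at 130, 82.4 and 96.3 CPM in NCD and at 49.6, 47.2 and 47.9 CPM in HFD, without overlap, and fell by 1.07 ± 0.20 on the log2 scale (2.1-fold lower, adjusted p = 0.0305). Gstt1 lay higher in every HFD library, at 128, 139 and 176 against 252, 198 and 216 CPM, but was not called (log2 change 0.61 ± 0.20, adjusted p = 0.0899). Gstt2 differed by -0.40 ± 0.22. The model Gm20441 overlaps Gstt3 and holds 26% of its 50-base windows, so reads of these genes cannot be told apart there.

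In the alpha class Gsta4, which conjugates hydroxynonenal from oxidised lipid, stood at 202, 236 and 244 CPM in NCD and 129, 93.9 and 144 CPM in HFD. It fell by 0.87 ± 0.21 on the log2 scale (1.83-fold lower, adjusted p = 0.0477), and the groups did not overlap. Gsta2 also lay lower without overlap (log2 change -0.84 ± 0.29, adjusted p = 0.109), while Gsta3 overlapped (0.08 ± 0.24). Of the windows of Gsta2, 64.2% occur in other genes, chiefly Gsta1.

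The 6 mu-class genes form a cluster on chromosome 3 (from Gstm7 at 107926334 to the end of Gstm4 at 108045179, GRCm38.p6), and 3 had values above 0 and 3 below. Gstm6 stood at 178, 183 and 190 CPM in NCD and at 107, 100 and 107 CPM in HFD, without overlap, and fell by 0.79 ± 0.16 on the log2 scale (1.73-fold lower, adjusted p = 0.0354). Gstm3 went the other way, from 28.9, 46.5 and 55.0 to 132, 45.9 and 117 CPM (log2 change 1.20 ± 0.40, adjusted p = 0.0978). HFD replicate 2 lay within the NCD range for Gstm3, and the value was 1.55 without that library. The kappa-class Gstk1, the zeta-class Gstz1, the microsomal Mgst1 and Mgst3 and the epoxide hydrolase Ephx1 had values from 0.29 to 1.02, with no call.

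The diet calls depended on which libraries were kept: leaving out HFD replicate 1 or HFD replicate 3 left 0 of the 6 members called (all genes called fell from 836 to 23 and 25). Leaving out HFD replicate 2 gave 1 member called and 0.94% of all genes, and leaving out NCD replicate 3 gave 2 and 3.55%. Leaving out NCD replicate 1 gave 10 and 13.7%, against 6 and 6.03% with all libraries. Without NCD replicate 2, 6 members and 8.89% of genes were called, with Gsr and Prdx5 in place of Gpx1 and Gsta4. The 6 members called with all libraries kept their directions in each of these fits. Without NCD replicate 1 the log2 changes were 0.90 for Nfe2l2, 1.15 for Gpx1 and -1.49 for Gstp1. Among members not called with all libraries, values without NCD replicate 1 were 0.27 for Keap1, -0.42 for Gsr, 0.44 for Cat and -0.55 for Prdx5. Prdx5 was called in that fit, as were Srxn1, Gclm and Gsta2. The value for Gss was 0.09 without NCD replicate 2. Txnrd1, Gclc, Gsta3 and Hmox1 turned in direction when some single library was left out. With libraries scaled by total counts alone, the median gene moved by -0.24 in place of -0.02, the share of all calls that were higher went from 42.9% to 21.8%, and Txnrd1, Gclc, Gsta3 and Gstm2 changed sign. DESeq2 called the same 6 members and 9 more, along with 16.6% of all genes. The 9 were Nqo1, Srxn1, Gclm, Gstm3, Gstt1 and Mgst3 higher, and Prdx5, Gsta2 and Gstp2 lower. For Srxn1 the adjusted p ran from 0.000423 to 0.227 over all alternatives, and for Gclm from 0.00257 to 0.238.

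Of 76 further genes of the pathway (partners of NRF2, NADPH supply, heme and iron handling, other targets, other antioxidants, glutathione breakdown and other GSTs), 67 were tested with diet, and 3 rose and 1 fell (5.97% called, against 6.03% of all genes). Chac1, which degrades glutathione, went from 0.603, 1.48 and 0.577 CPM in NCD to 3.56, 3.97 and 2.61 CPM in HFD (log2 change 2.13 ± 0.46, adjusted p = 0.0411). Sod3, the extracellular superoxide dismutase, went from 8.01, 16.9 and 13.4 to 43.1, 30.6 and 37.2 CPM (1.57 ± 0.28, adjusted p = 0.028). Cyp2a5, a cytochrome P450 known as an NRF2 target in mouse liver, went from 1367, 694 and 854 to 443, 303 and 476 CPM (-1.23 ± 0.29, adjusted p = 0.0477). The list's median was 0.05, and the third increase was in the selenium carrier Selenop.

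The second comparison asks what C1 does in mice on the high-fat diet. With C1, 0 of 40 members were called, in a comparison with 0% of 13358 genes called higher and 0.0524% called lower by edgeR (7 genes; 77 by DESeq2, with no member among them). An unadjusted p under 0.05 was reached by 4 members (10%) and 7.75% of all genes. That count rested on single libraries: it was 13 without HFD replicate 2 (13.6% of all genes), 1 without HFD replicate 1 or HFD replicate 3 (4.2% and 5.33%), 0 without HFD+C1 replicate 1 (7.11%) and 2 without HFD+C1 replicate 3 (7.02%). HFD+C1 lay wholly above HFD for 1 member (2.5%) against 6.36% of all genes, and wholly below for 2 (5%) against 5.99%. The member median was -0.03 and that of all genes 0.01 on the log2 scale; without HFD replicate 1 or HFD replicate 3 the member median was 0.015 or 0.0049, and it stood at -0.12 with HFD replicate 2 left out and at -0.08 with HFD+C1 replicate 1 left out.

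Hmox1, which degrades heme, was the member that lay wholly higher with C1: it stood at 11.5, 11.8 and 8.32 CPM in HFD and 16.3, 14.0 and 12.6 CPM in HFD+C1. Its log2 difference was 0.44 ± 0.16 (95% interval 0.08 to 0.79, adjusted p = 0.501). Hmox1 is also strongly expressed by macrophages, whose marker sum was higher in every HFD+C1 library than in any HFD library; the part of this in the result was not tested. Sod1, the cytosolic superoxide dismutase, stood at 364, 286 and 282 CPM in HFD and 244, 264 and 249 CPM in HFD+C1 (-0.30 ± 0.13, adjusted p = 0.614, and -0.17 without HFD replicate 1). Gstp2 went from 2.36, 2.09 and 2.65 to 1.37, 1.79 and 1.92 CPM (-0.50 ± 0.25, adjusted p = 0.691). These 2 genes were the members that lay wholly below HFD.

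Gstm3 had the largest difference with C1, at 132, 45.9 and 117 CPM in HFD and 57.6, 49.4 and 72.1 CPM in HFD+C1 (log2 difference -0.72 ± 0.29, 95% interval -1.35 to -0.10, adjusted p = 0.56). The groups overlapped through HFD replicate 2. Without that library the difference was -1.07 and passed the test (adjusted p = 0.00389), while without HFD replicate 1 it was -0.45 (adjusted p = 0.9995); it also passed with no filter on low counts. Gpx4 stood at 950, 561 and 836 CPM in HFD and 697, 581 and 614 CPM in HFD+C1 (-0.31 ± 0.17, and -0.15 without HFD replicate 1). Gstt3 stood at 69.1, 46.1 and 67.0 CPM with C1 (0.33 ± 0.15). Txnrd1 went from 54.9, 68.1 and 54.6 to 59.2, 72.7 and 70.4 CPM (0.19 ± 0.13, and 0.30 without HFD replicate 2). All 3 overlapped and none was called. Gstp1 (0.21 ± 0.16) rested on 1133 CPM in HFD+C1 replicate 2 beside 781 and 685 CPM in the others. Nfe2l2 stood at 44.9, 47.8 and 53.1 CPM and Keap1 at 22.9, 25.9 and 27.6 CPM with C1. The log2 difference from HFD was 0.01 ± 0.11 for Nfe2l2, with a 95% interval of -0.23 to 0.26.

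**Figure D4:**
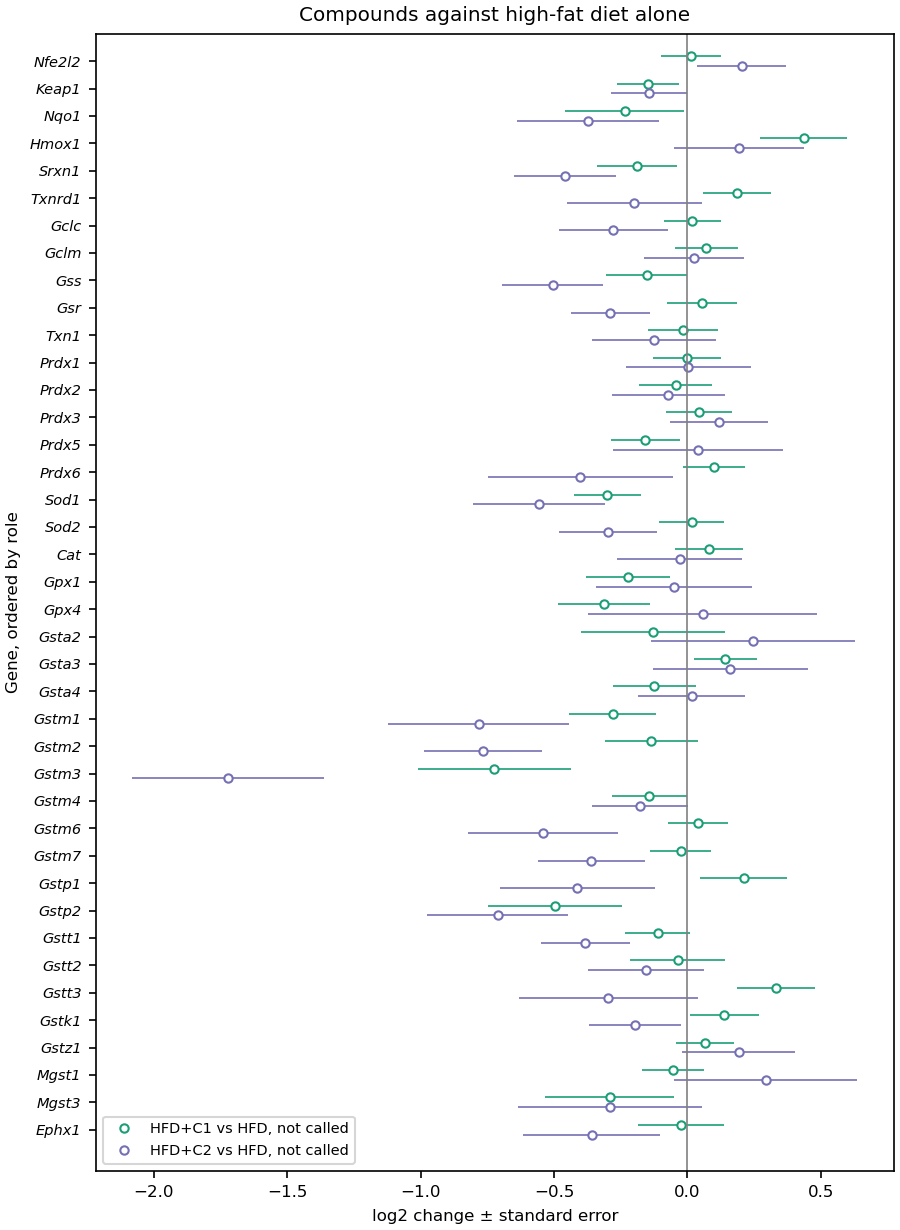
Log2 difference from HFD with its standard error for each of the 40 members tested, under C1 and under C2, grouped by role; both sets share the same 3 HFD libraries. No member was called, and the lowest values under either compound are those of Gstm3 (-0.72 with C1 and -1.72 with C2).

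The third comparison asks the same of C2 and uses the same 3 HFD libraries. With C2, 0 of 40 members were called, where 0% of 13503 genes were called higher and 0.0222% lower by edgeR (3 genes). DESeq2 called 35 genes, and Gstm3 was the member among them. Values lay below 0 for 28 members (70%) and 47.8% of all genes, and the member median was -0.20 against 0.02. HFD+C2 lay wholly below HFD for 8 members (20%) against 6.64% of all genes, and wholly above for 0 against 7.01%; other scalings of the levels gave 8 to 11 below, against 6.12% to 8.39% of genes, and 0 above. The 7 members with an unadjusted p under 0.05 were all lower (17.5% against 6.89% of all genes in either direction). Their number was 2 without HFD replicate 1 or HFD replicate 3 (2.29% and 2.81% of all genes) and 11 without HFD+C2 replicate 1 (11.1%). HFD replicate 2 was the lowest HFD library for 29 of 40 members (72.5%, against 37.1% of all genes).

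All 6 mu-class genes had values below 0 with C2, also without HFD+C2 replicate 1 and under each scaling tried, and Gstm2, Gstm3 and Gstm6 lay wholly below HFD. Gstm3 stood at 23.1, 35.5 and 31.4 CPM, against 132, 45.9 and 117 CPM in HFD. The log2 difference was -1.72 ± 0.36 (95% interval -2.53 to -0.91; 3.30-fold lower), with an adjusted p of 0.625 by edgeR and 0.00132 by DESeq2. Its HFD+C2 libraries lay in the range of the NCD libraries or just below it. Gstm2 stood at 77.5, 88.2 and 69.0 CPM, against 151, 92.4 and 154 CPM in HFD (-0.77 ± 0.22, 95% interval -1.27 to -0.27, adjusted p = 0.695). Gstm1 stood at 773, 1822 and 1705 CPM against 2953, 1800.4 and 2600.3 CPM, overlapping through HFD replicate 2 (-0.78 ± 0.34), and without HFD+C2 replicate 1 its difference was -0.48. Gstm6, at 39.5, 89.8 and 87.7 CPM, and Gstm7, at 39.8, 66.8 and 55.2 CPM, had their lowest values in HFD+C2 replicate 1, and their differences of -0.54 and -0.36 became -0.24 and -0.18 without it. Of the 50-base windows of Gstm3, 28.8% occur in other genes, against 9.36% for Gstm2 and 23.2% for Gstm1.

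**Figure D5:**
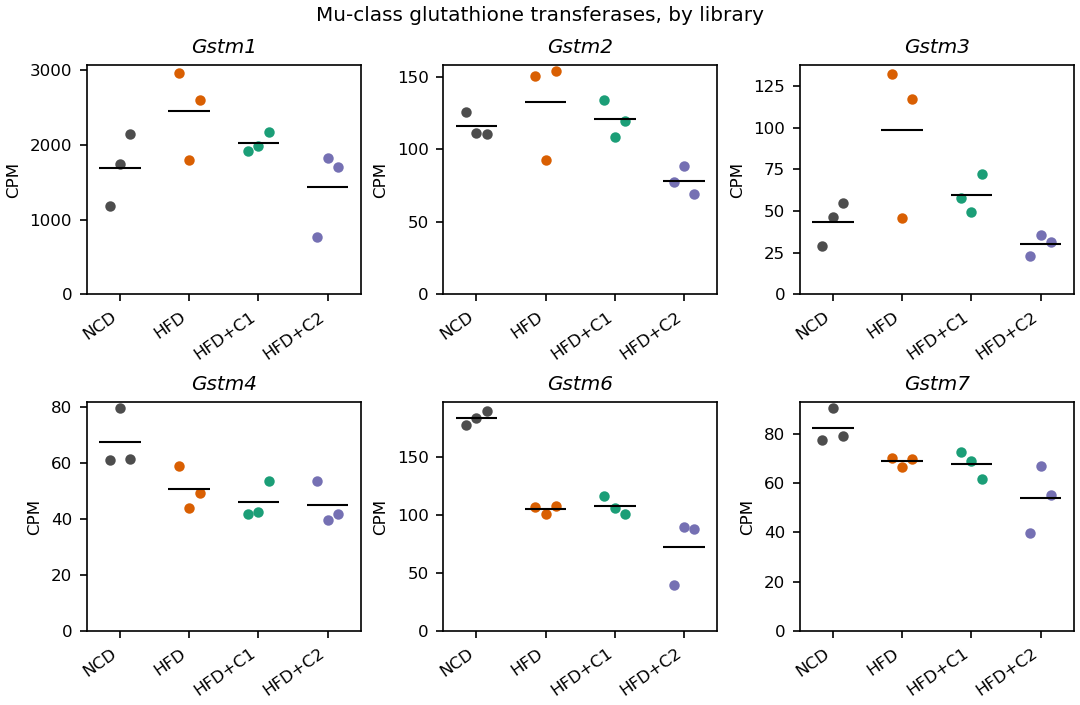
CPM in each library (points) and group mean (black line) of the 6 mu-class GST genes in the 4 groups. For Gstm3 the 3 HFD+C2 libraries lie at 23.1 to 35.5 CPM, below all HFD and HFD+C1 libraries, and HFD replicate 2 at 45.9 CPM lies far from the other HFD libraries.

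The pi- and theta-class genes and 3 of 4 glutathione supply genes had values below 0 with C2, without a call; of these Gstt3 was at 0.06 without HFD+C2 replicate 1. Gstp1 stood at 315, 662 and 720 CPM and Gstp2 at 1.25, 1.29 and 1.80 CPM, each below every HFD library, with log2 differences of -0.41 ± 0.29 and -0.71 ± 0.26. For Gstp1 the highest HFD+C2 library, at 720 CPM, and the lowest HFD library, at 722 CPM, were almost level, and the value was -0.12 without HFD+C2 replicate 1. Glutathione synthetase Gss stood at 26.5, 27.7 and 22.4 CPM, against 39.9, 27.5 and 40.6 CPM in HFD (-0.51 ± 0.19, adjusted p = 0.695), overlapping through HFD replicate 2. Gsr (-0.29 ± 0.15) and Gstt1 (-0.38 ± 0.17, at 172, 171 and 170.2 CPM) lay wholly below HFD too. So did Sod1, at 141, 262 and 234 CPM, and its difference of -0.56 ± 0.25 was -0.33 without HFD+C2 replicate 1.

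Of the 12 members with values above 0 with C2, 11 turned below 0 when some single library was left out, and 6 of the 28 below 0 turned above 0 likewise. The alpha-class Gsta2 (0.25) was -0.26 without HFD+C2 replicate 2, Gsta3 (0.16) was -0.25 without HFD+C2 replicate 1, and Gsta4 stood at 0.02. Mgst1, a microsomal GST, stood at 6991, 2906 and 2982 CPM against 3781, 3378 and 3266 CPM in HFD, and its log2 difference of 0.29 ± 0.34 was -0.24 without HFD+C2 replicate 1. Gstz1, which isomerises maleylacetoacetate in tyrosine breakdown, stood at 1218, 846 and 799 CPM against 799, 839 and 850 CPM, and its 0.19 ± 0.21 became -0.02. Hmox1 stood at 8.82, 16.1 and 11.5 CPM (0.19 ± 0.24) and gave -0.07 without HFD+C2 replicate 2. Nfe2l2 stood at 65.0, 45.4 and 56.9 CPM and Keap1 at 23.8, 26.4 and 26.7 CPM; the log2 difference of Nfe2l2 was 0.20 ± 0.17 (95% interval -0.17 to 0.58). It did not turn without any 1 library, and was 0.08 without HFD+C2 replicate 1 and 0.33 without HFD+C2 replicate 2. HFD+C2 replicate 1 also held the highest sums of the 12 libraries for macrophage (404 CPM), stellate (157), endothelial (96.8) and neutrophil markers (6.56). Of its reads, 47.1% were not counted in a gene. The part of these features in the values above was not tested.

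The compounds were then compared directly, as 1 pair at the same dose and duration. Between HFD+C2 and HFD+C1, edgeR called 0% of 13229 genes higher and 0% lower, and 0 of 40 members; 608 genes (4.6%) and 3 members had an unadjusted p under 0.05, and DESeq2 called 3 genes and no member. Without HFD+C2 replicate 1, 11 members and 6.33% of genes had such a p, and without HFD+C2 replicate 2 or HFD+C2 replicate 3, 5 members each (5.68% and 8.68%). It was reached by 2 members each without HFD+C1 replicate 1, 2 or 3 (2.16%, 3.53% and 3.23% of genes). HFD+C2 lay wholly below HFD+C1 for 11 members (27.5%) against 6.09% of all genes (8 to 11 members and 5.37% to 7.53% of genes under other scalings), and wholly above for 0 against 5.96%. The member median was -0.17 and that of all genes 0.01.

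Gstm3 was 1.98-fold lower with C2 than with C1, at 23.1 to 35.5 against 49.4 to 72.1 CPM, a log2 difference of -0.99 ± 0.21 (95% interval -1.46 to -0.52, adjusted p = 0.841). Gstm2 stood at 69.0 to 88.2 against 134, 108 and 119 CPM (-0.62 ± 0.16, 95% interval -0.99 to -0.25). Both groups were tight for these genes and did not overlap, but neither difference passed the adjustment over all genes. Gss, at 34.9, 32.7 and 29.5 CPM with C1 (-0.34 ± 0.15), also lay wholly lower with C2. So did Gsr, at 36.2, 35.1 and 40.1 CPM against 54.1, 41.7 and 44.5 CPM (-0.33 ± 0.15, and -0.21 without HFD+C1 replicate 1). In the other direction Mgst1 (0.36 ± 0.34; 3329.7, 3233 and 3483 CPM with C1) and Gpx4 (0.38 ± 0.41) were above 0, and both were below 0 without HFD+C2 replicate 1, where Gpx4 reached 1497 CPM beside 508 and 460 CPM. Gsta2 (0.38 ± 0.38) rested likewise on HFD+C2 replicate 2, at 58.1 CPM beside 31.4 and 20.7 CPM, against 28.0, 18.3 and 38.7 CPM with C1. For Nfe2l2 the compounds differed by 0.20 ± 0.17, with a 95% interval of -0.18 to 0.58, and by 0.07 without HFD+C2 replicate 1 or 0.33 without HFD+C2 replicate 2, which does not show that they act alike.

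Of the 67 further pathway genes tested, 0 were called with C1, with C2 or between the compounds. An unadjusted p under 0.05 was reached by 6 with C1 (8.96%, against 7.75% of all genes), by 9 with C2 (13.4% against 6.89%) and by 7 between the compounds (10.4% against 4.6%). Chac1, high with diet, stood at 0.986, 1.28 and 1.76 CPM with C1 and 1.80, 2.27 and 1.85 CPM with C2, against 3.56, 3.97 and 2.61 CPM in HFD; its log2 differences were -1.36 ± 0.28 (adjusted p = 0.136) and -0.78 ± 0.25 (adjusted p = 0.695). Chac1 was named for its increase with diet. Both differences use the same HFD libraries as that increase, so they are not independent of the choice.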

How the data were processed

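The authors deposited 3 tables of read counts per gene; they are named normalized, but all values are whole numbers with different totals, and the HFD columns are identical in all 3 (0 cells differ). Per the submitters' processing notes, Trimmomatic 0.39, STAR 2.7, DESeq2 and mm10 were used; annotation, strand use and filters are not given in the sources used here. Per the labels' protocols, libraries were made from total RNA with the Advanta RNA-seq XT kit. The 4 rows that name no gene (27.3% to 58.2% of reads) were left out.

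The counts were tested with edgeR 4.0.16 (R 4.3.3; TMM, quasi-likelihood, genes whose counts averaged 10 or more over 6 libraries, Benjamini-Hochberg over all genes tested), after the test was tested on simulated data. Levels in CPM use TMM factors from genes averaging 10 or more counts over the 12 libraries. Floors cover counting error only. Alternatives were DESeq2 1.42.0, limma 3.58.1 on log2(CPM + 1), other scalings and filters, a replicate block, 1 fit of 12 libraries and leaving out each library.

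The members, lists and tests were chosen with earlier results of these data known. Values per library are given for Nfe2l2, Keap1, called members and, in each comparison and direction, the 4 members with the smallest p; others shown were picked after their values were seen. Of promoters, those of Srxn1, Gclm, Gstp1 and Gstp2 were added likewise. A comparison of protein sequences was planned and not run; shared 50-base transcript windows (GENCODE M21) were counted instead.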

Additional observations from a re-analysis of the deposited data

How the results depend on the processing

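With diet, 6 members were called. DESeq2 called 15, a fit of all 12 libraries 13, no filter on low counts 13, and the fit with the replicate number as a block 3 (Nfe2l2, Gstp1 and Gstt3). The range over leaving out 1 library was 0 to 10. The same-numbered libraries are not known to be paired: their deviations from group means correlated at -0.17 to 0.24, with 3 of 12 pairs over 0.1. Limma called 4, and total-count, median-ratio and upper-quartile scaling and a mean of at least 50 counts called 6 or 7. Gstp1, Nfe2l2 and Gstt3 were called in all 9 settings that kept every library. Gstm6 and Gpx1 were called in 7 and Gsta4 in 6. In the 6 fits without 1 library, Gstp1 was called in 4, Nfe2l2 in 3, Gstt3 and Gstm6 in 2, and Gpx1 and Gsta4 in 1. All genes called were 836 (6.03%), against 2298 with DESeq2 (16.6%), 361 with limma (2.6%) and 1105 with total counts (7.97%). No filter called 4493 (12.7% of 35374 genes) and the higher minimum 524 (5.21% of 10057). The block called 483 (3.48%) and the fit of 12 libraries 2418 (17.4%).

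With C1, 0 members were called; no filter called 1 (Gstm3), and leaving out 1 library gave 0 to 1. With C2, 0 were called; DESeq2 and no filter each called 1 (Gstm3), and so did no filter between the compounds. The other alternatives called 0, the block among them. All genes called with no filter were 206, 152 and 162 (0.69%, 0.531% and 0.551%). Directions turned when 1 library was left out: Gstp1 with C1 ran from -0.031 to 0.36 on the log2 scale. With C2, Gstz1 ran from -0.018 to 0.31, Mgst1 from -0.24 to 0.51 and Hmox1 from -0.066 to 0.38. Between the compounds, Mgst1 ran from -0.19 to 0.57, Gpx4 from -0.38 to 0.67 and Gsta2 from -0.12 to 0.67. The cause of these changes was not tested. With total counts, values below 0 with C2 went from 28 to 33 of 40 members. Other scalings of the levels, chosen after seeing the data, moved the members whose groups lay apart: with diet 11 lay higher and 12 lower, against 13 and 7 with TMM over all genes, which lowers the NCD levels relative to HFD, and 8 and 16 with total counts. The shares of all genes moved likewise, from 18.2% and 18.9% to 25.4% and 12.9%, and to 11.7% and 27.3%. With C2, 8 members and 6.64% of genes lay lower, against 11 members with either (7.51% and 8.39% of genes). Depth is least in NCD replicate 2, which enters the diet comparison alone; its 4281210 reads in genes put the floor of 3 counts at 0.634 CPM.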
